A study of Mus musculus with 12 samples.

Results

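The proteasome is the protease complex that degrades ubiquitin-tagged proteins, and its subunits, activators and assembly factors carry the gene symbols Psma to Psmg. Members were all genes with a probe set annotated to 1 gene whose symbol was Psm, a letter from a to g and a number. This gave 47 of the 18194 genes on the array: 19 of the catalytic core (Psma, Psmb), 20 of the regulatory cap (Psmc, Psmd) and 8 regulators (Psme, Psmf, Psmg). Each gene was read from its brightest probe set over the 12 arrays. Of the members, 44 lay above the limit for dim genes (mean log2 intensity of 8.56) and were tested among 9097 genes, and Psma8, Psmb9 and Psmb11 fell below it. Psme2, a partner of Psme1 in the PA28 activator, was measured only by a probe set shared with another gene and was not a member.

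RNA came from gastrocnemius, the large calf muscle, of 12 male mice of generation 37, aged 79 to 86 days (mean 84), with 1 animal on each array. All 12 belonged to lines bred for high voluntary wheel running. The 6 mini-muscle mice were from line 3, have small hindlimb muscles as an inherited trait, and had the muscles of both legs combined before extraction. The 6 regular-muscle mice were from line 8 and gave the muscle of 1 leg. Each phenotype was thus represented by 1 closed line, so phenotype, line and pooling cannot be told apart. Values are log2 intensities, differences are mini-muscle minus regular-muscle, and a gene was called at a Benjamini-Hochberg adjusted p under 0.05 in limma over all 9097 genes.

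As background, the 20S core is a barrel of 2 outer alpha rings and 2 inner beta rings, and its protease sites face inwards. The 19S cap recognises ubiquitin chains, removes them and threads the unfolded protein into the core with a ring of ATPases. In muscle this system breaks down myofibrillar proteins during atrophy and removes damaged proteins during normal turnover. Transcription of the subunit genes is known to be raised as a set by the factor Nfe2l1 when proteasome capacity is short.

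The tissue label held: all 8 skeletal muscle markers were above the dim limit, and their summed intensity was 819805 to 945190 on mini-muscle arrays and 901945 to 1125562 on regular-muscle arrays. Among them the slow-fibre genes Myh7 (difference 0.99, SE 0.11, adjusted p = 2.9e-06) and Tnnt1 (0.95, SE 0.09, adjusted p = 7.1e-07) were higher in mini-muscle. Myh4, the fastest myosin heavy chain, was lower (-1.33, SE 0.13, adjusted p = 8.3e-07), as was the fast troponin Tnnt3 (-0.29, SE 0.05, adjusted p = 0.00069). The call of Tnnt3 was lost under quantile normalization and with arrays centred on their medians, with differences as small as -0.052. Of 8 fibroblast markers, 5 were lower in mini-muscle (62.5%, against 11.8% of all genes). Their sums were 25874 to 44555 on mini-muscle arrays and 45707 to 71581 on regular-muscle arrays. Endothelial markers summed to 8592 to 12105 on mini-muscle arrays and 6819 to 10866 on regular-muscle arrays, with 1 of 7 called (Pecam1, 0.50, SE 0.18, adjusted p = 0.044), a call kept in 3 of 12 fits that each left out 1 array. The part of these cells in the results below was not tested, and in whole muscle fewer cells of a type and less RNA per cell cannot be told apart. Arrays correlated at 0.954 to 0.974 within a group and at 0.924 to 0.948 between groups.

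Proteasome transcripts differed between the groups in both directions and by small amounts. Of the 44 tested members, 8 were higher in mini-muscle, 7 were lower and 29 were not called. The called share was 34.1%, against 26.7% of all genes tested. For the directions apart the shares were 18.2% higher and 15.9% lower among members, against 14.9% higher and 11.8% lower among all genes. For 9 members (20.5%) the 2 groups were fully separate, with no array of one inside the range of the other, against 13.0% of all genes. The median difference over the members was -0.02, against 0.03 over all genes. The differences ran between -0.62 for Psmb8, which was not called, and 0.74 for Psmf1, a 1.67-fold change that was the largest called one.

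Replicates of the members lay close together. Their median within-group SD was 0.16, against 0.24 over all genes, and their median size of difference was 0.19, against 0.22. For a comparison at like intensity, the 31 tested constitutive subunits of core and cap were set beside the 2055 genes in the same range of mean intensity (log2 11.70 to 15.92). In that range 45.0% of all genes were called, against 32.3% of the subunits (5 higher, 5 lower). The median within-group SD was 0.13 for the subunits and 0.16 for the genes of that range, nearer to each other than to the 0.24 of all genes. The median size of difference was 0.13 for the subunits and 0.23 for the genes of that range. The share without overlap was 25.8% for the subunits and 25.3% for those genes. The called share of the subunits was thus below that of genes as bright as they are, a difference that was not tested.

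**Figure D1:**
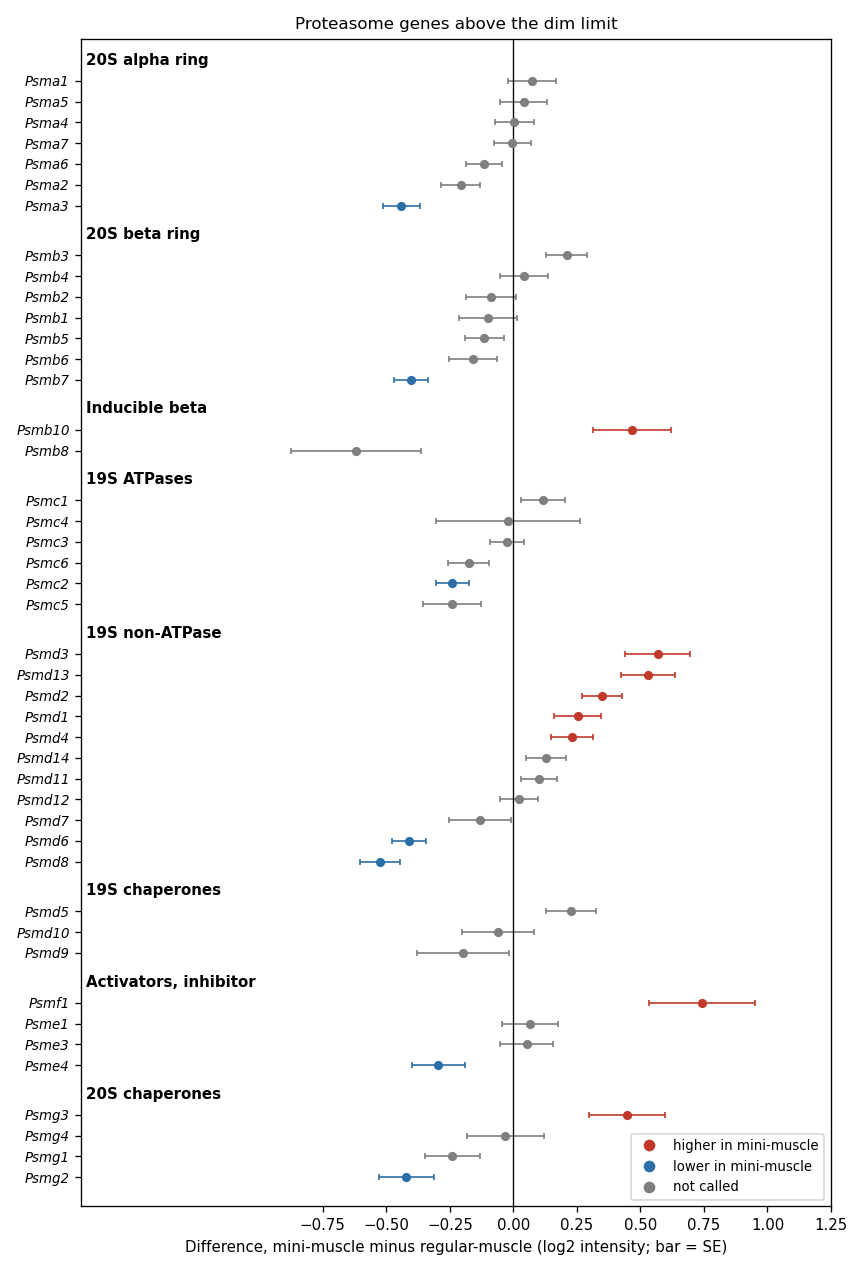
Difference of each proteasome member between mini-muscle and regular-muscle arrays on the log2 scale (points, with standard errors as bars), ordered by role from the alpha ring to the assembly chaperones. Of the 8 members called higher, 5 are non-ATPase cap subunits, while no role holds more than 2 of the 7 called lower. No cap assembly chaperone is called, and the median over all 44 tested members is -0.02.

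The alpha ring, which gates the entry to the core, had 1 of 7 tested members called. Psma3 had a lowest, median and highest log2 intensity of 14.34, 14.53 and 14.71 on mini-muscle arrays, against 14.82, 14.94 and 15.12 on regular-muscle arrays. The mini-muscle arrays were all below the regular-muscle ones, and the difference was -0.44 (SE 0.07, 1.36-fold, adjusted p = 0.00019). A second, dimmer probe set of Psma3 differed by -0.69. The other 6 tested members lay between -0.21 and 0.07. Psma2 was nearest to the threshold (-0.21, 95% interval -0.37 to -0.04, adjusted p = 0.057), and the intervals of Psma1, Psma4, Psma5, Psma6 and Psma7 all included 0. Psma8, an alpha subunit known from the testis, was dim, at 3.10 to 7.48 on mini-muscle arrays and 5.60 to 6.63 on regular-muscle arrays.

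The beta ring holds the 3 proteolytic subunits, Psmb6 (caspase-like), Psmb7 (trypsin-like) and Psmb5 (chymotrypsin-like), and only Psmb7 was called. Psmb7 had 15.62, 15.70 and 15.87 (lowest, median, highest) on mini-muscle arrays, against 15.91, 16.14 and 16.26 on regular-muscle arrays. No mini-muscle array reached the lowest regular-muscle array, and the difference was -0.40 (SE 0.07, 1.32-fold, adjusted p = 0.00019). Psmb6 had 13.46, 13.69 and 13.86 on mini-muscle arrays, against 13.59, 13.83 and 14.12 on regular-muscle arrays, with a difference of -0.16 (95% interval -0.36 to 0.04, adjusted p = 0.24). Psmb5 had 13.45, 13.58 and 13.74 on mini-muscle arrays, against 13.52, 13.71 and 13.89 on regular-muscle arrays, with a difference of -0.11 (95% interval -0.28 to 0.05, adjusted p = 0.31). Both groups overlapped widely for these 2 genes, and a decrease as large as that of Psmb7 lies outside their intervals. The structural subunits Psmb1, Psmb2, Psmb3 and Psmb4 lay between -0.10 and 0.21 with none called, and Psmb3 came closest (0.21, 95% interval 0.04 to 0.38, adjusted p = 0.058).

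In immune cells and under interferon, Psmb9, Psmb10 and Psmb8 replace Psmb6, Psmb7 and Psmb5 to form the immunoproteasome. Psmb10, the alternative to Psmb7, was higher in mini-muscle. It had 9.61, 10.17 and 10.20 (lowest, median, highest) on mini-muscle arrays, against 9.17, 9.53 and 9.82 on regular-muscle arrays (difference 0.47, SE 0.16, 1.38-fold, adjusted p = 0.032). The groups overlapped, and the call was kept in 5 of the 12 fits that each left out 1 array. Psmb8 had 8.01, 8.69 and 9.67 on mini-muscle arrays, against 9.26, 9.39 and 9.93 on regular-muscle arrays, and missed the threshold (-0.62, SE 0.26, adjusted p = 0.085). Mini-muscle replicates 1 and 4, at 9.67 and 9.65, lay within the regular-muscle range and the other 4 below it. Without mini-muscle replicate 1 the difference of Psmb8 was -0.78 (adjusted p = 0.027), and without replicate 4 it was -0.78 (adjusted p = 0.03). These are the 2 arrays that lie against the difference, and in the 10 fits that left out another array Psmb8 was not called (-0.66 to -0.45).

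Psmb9 was too dim to be tested in the main comparison. It had 5.78, 7.79 and 8.58 on mini-muscle arrays, against 7.85, 8.73 and 9.40 on regular-muscle arrays, and a fit of all 18194 genes gave -1.10 (SE 0.45, adjusted p = 0.14). The same 2 mini-muscle arrays, replicates 1 and 4, were the highest of their group for Psmb8 and for Psmb9. Psmb11, the thymus-specific beta subunit, was dim as well, with medians of 4.84 on mini-muscle and 5.26 on regular-muscle arrays.

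**Figure D2:**
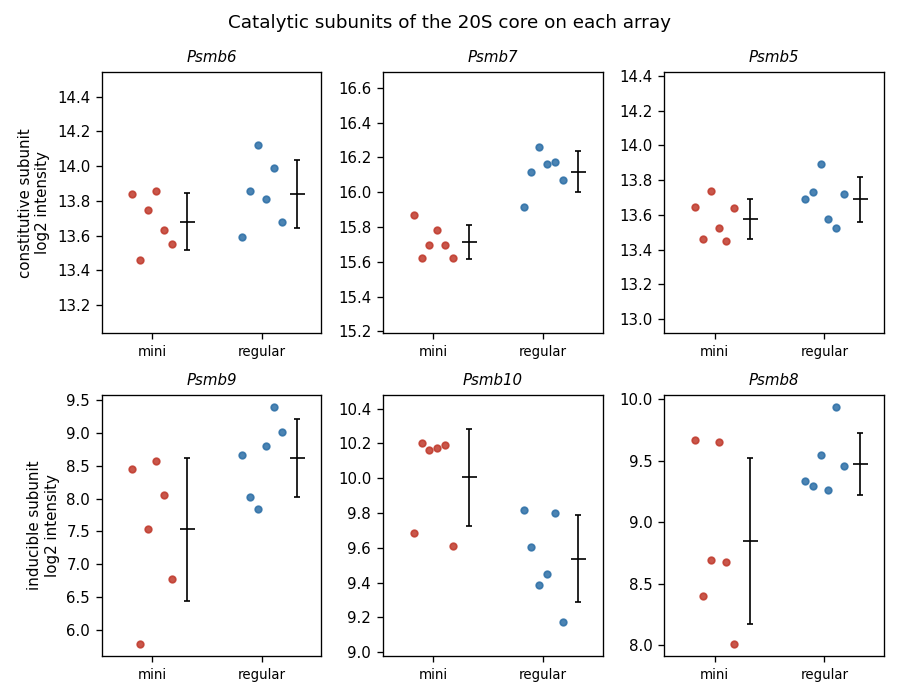
Log2 intensity on each array (points) of the 3 constitutive catalytic subunits and their inducible counterparts, with mini-muscle left of regular-muscle for each gene and the group mean with its SD (n = 6 each) beside the points. Psmb7 separates the groups, whereas 2 mini-muscle arrays of Psmb8 and 3 of Psmb9 lie within the regular-muscle range.

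Leukocytes are a usual source of immunoproteasome transcripts. Of 12 leukocyte markers measured, 4 were above the dim limit, and Csf1r, the macrophage growth factor receptor, was the only one called (-0.44, SE 0.14, adjusted p = 0.021), in 10 of 12 fits that each left out 1 array. The 12 markers summed to 5104 to 7081 on mini-muscle arrays and 5863 to 7287 on regular-muscle arrays, ranges that overlap. Ptprc, Cd68, Cd52, Tyrobp, Fcer1g, Itgam, Cd3e and Cd79a were below the limit. Among 10 tested genes of antigen presentation and interferon response, 1 was higher and 1 lower. B2m, the light chain of class I molecules, was lower (-0.51, SE 0.09, adjusted p = 0.00052), and Tapbp, which loads peptide onto them, was higher (0.30, SE 0.09, adjusted p = 0.02). The part of leukocytes in the values of Psmb8, Psmb9 and Psmb10 was not tested.

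In the cap, 8 of 20 members were called, 5 higher and 3 lower, with a median difference of 0.00. The called share was 40.0%, against 26.7% of all genes and 45.0% of genes at mean log2 11.70 to 15.92. Cap genes had means of log2 9.57 to 14.61. The core had 3 of 16 tested members called, 1 higher and 2 lower (18.8%), with a median of -0.09. Whether cap and core differ in this share was not tested. The 6 ATPases that unfold the substrate had 1 call, Psmc2. It had 14.39, 14.51 and 14.53 (lowest, median, highest) on mini-muscle arrays, against 14.59, 14.70 and 14.88 on regular-muscle arrays, without overlap (difference -0.24, SE 0.07, 1.18-fold, adjusted p = 0.0099).

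The other ATPases, Psmc1, Psmc3, Psmc4, Psmc5 and Psmc6, lay between -0.24 and 0.12 with none called. Psmc6 differed by -0.18 on its brightest probe set, by -0.26 on a second and by -0.97 (SE 0.23) on the dimmest, and it was called lower when its probe sets were averaged. Psmc4 had 1 array far from the rest: mini-muscle replicate 1 was at 11.50, while the other 5 mini-muscle arrays were at 13.37 to 13.83 and the regular-muscle arrays at 13.00 to 13.57. With that array the difference of Psmc4 was -0.02 (SE 0.28, adjusted p = 0.97), and without it 0.33 (SE 0.12, adjusted p = 0.057). The second probe set of Psmc4 differed by 0.10.

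The 11 non-ATPase cap subunits held 7 of the 8 cap calls, 5 higher and 2 lower (63.6%, against 26.7% of all genes and 45.0% of genes of like intensity). For 5 of the 11 the groups did not overlap (45.5%, against 13.0% of all genes and 25.3% of genes of like intensity). They can be divided into those of the base, which sit on the ATPase ring, and those of the lid, a division made after the values were seen. The 3 non-ATPase base subunits with a Psm name were all higher, where 14.9% of all genes and 20.8% of genes of like intensity were. The 6 ATPases belong to the base as well, and of these none was higher and Psmc2 was lower. Adrm1, another base subunit, was not analysed here. Psmd2, a scaffold that docks ubiquitin-like shuttle proteins, had 13.94, 14.03 and 14.19 (lowest, median, highest) on mini-muscle arrays, against 13.48, 13.74 and 13.88 on regular-muscle arrays, without overlap (difference 0.35, SE 0.08, 1.27-fold, adjusted p = 0.0026).

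Psmd1, the other large base scaffold, had 13.16, 13.48 and 13.65 on mini-muscle arrays, against 12.92, 13.23 and 13.27 on regular-muscle arrays (difference 0.25, SE 0.09, 1.19-fold, adjusted p = 0.049). The groups overlapped, and the call was kept in 2 of the 12 fits that each left out 1 array. Psmd4, a ubiquitin receptor, had 13.48, 13.55 and 13.76 on mini-muscle arrays, against 13.05, 13.40 and 13.46 on regular-muscle arrays, without overlap (difference 0.23, SE 0.08, 1.17-fold, adjusted p = 0.044). The call of Psmd4 was kept in 4 of those 12 fits, and its second probe set above the dim limit differed by -0.08.

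The lid, which surrounds the deubiquitinase of the cap, was divided: 2 of its 8 subunits were higher, 2 were lower and 4 were not called. Of all genes 26.7% were called, and of genes of like intensity 45.0%. Psmd3 had 12.10, 12.22 and 12.41 (lowest, median, highest) on mini-muscle arrays, against 11.15, 11.83 and 11.94 on regular-muscle arrays, without overlap (difference 0.57, SE 0.13, 1.48-fold, adjusted p = 0.0026). Psmd13 had 11.60, 11.97 and 12.33 on mini-muscle arrays, against 11.31, 11.43 and 11.60 on regular-muscle arrays, ranges that met at 11.60 (difference 0.53, SE 0.11, 1.44-fold, adjusted p = 0.0011). A second probe set of Psmd13 differed by 0.47.

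Psmd8, by contrast, was lower on every mini-muscle array. It had 13.34, 13.57 and 13.70 (lowest, median, highest) on mini-muscle arrays, against 13.99, 14.01 and 14.33 on regular-muscle arrays (difference -0.53, SE 0.08, 1.44-fold, adjusted p = 7.5e-05), which gave it the smallest adjusted p of the 44 members. Psmd6 had 13.80, 13.96 and 14.04 on mini-muscle arrays, against 14.22, 14.34 and 14.47 on regular-muscle arrays, also without overlap (difference -0.41, SE 0.07, 1.33-fold, adjusted p = 0.00014). Its second probe set differed by -1.21 (SE 0.31), with a mini-muscle range of 11.49 to 14.07 and a regular-muscle range of 14.53 to 14.95.

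Psmd14, the deubiquitinase that removes the ubiquitin chain, was not called. It had 13.38, 13.58 and 13.66 on mini-muscle arrays, against 13.21, 13.43 and 13.54 on regular-muscle arrays (difference 0.13, 95% interval -0.03 to 0.29, adjusted p = 0.25). Psmd7, its dimer partner, Psmd11 and Psmd12 were not called either, at -0.13, 0.10 and 0.02. Sem1, the small lid subunit without a Psm name, differed by -0.09 (95% interval -0.25 to 0.06, adjusted p = 0.41). Lid subunits, which assemble in equal numbers in the complex, thus differed at the transcript level by between -0.53 and 0.57. Of Psmd5, Psmd9 and Psmd10, chaperones that assemble the cap and are absent from the finished complex, none was called (0.23, -0.20 and -0.06).

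**Figure D3:**
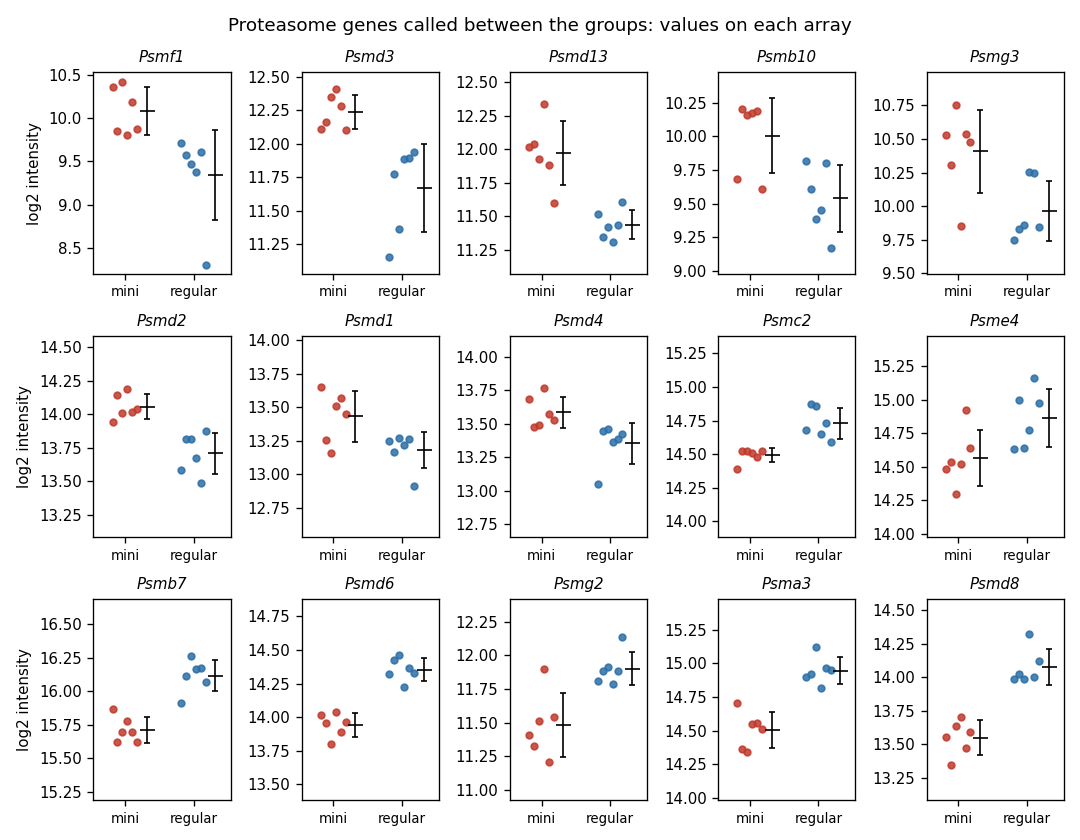
Log2 intensity on each array (points) of the 15 called members, with mini-muscle left of regular-muscle in each panel and the group mean with its SD (n = 6 each) beside the points. The groups do not overlap for 9 of them, among them Psmd3, Psmd6 and Psmd8 of the lid.

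Among proteins that bind the ends of the core, Psmf1 and Psme4 were called, in opposite directions. Psmf1 (PI31), which inhibits the core in vitro, had 9.81, 10.03 and 10.43 (lowest, median, highest) on mini-muscle arrays, against 8.31, 9.52 and 9.71 on regular-muscle arrays, without overlap (difference 0.74, SE 0.21, 1.67-fold, adjusted p = 0.012). Regular-muscle replicate 6, at 8.31, was far below the other 5, and without it the difference was 0.54 (SE 0.15, adjusted p = 0.012). The 2 other probe sets of Psmf1 above the dim limit differed by 0.37 and 0.43.

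Psme4 (PA200), an activator of degradation without ubiquitin, had 14.29, 14.53 and 14.92 on mini-muscle arrays, against 14.63, 14.87 and 15.16 on regular-muscle arrays, with overlap (difference -0.30, SE 0.11, 1.23-fold, adjusted p = 0.045). Its 3 other probe sets above the limit differed by -0.14 to -0.03, and the call was kept in 4 of the 12 fits that each left out 1 array. Psme1, of the interferon-inducible PA28 activator, had 11.92, 12.02 and 12.48 on mini-muscle arrays, against 11.73, 12 and 12.37 on regular-muscle arrays (difference 0.06, 95% interval -0.17 to 0.30, adjusted p = 0.72). Psme3, the nuclear activator of that family, had 10.66, 10.77 and 10.96 on mini-muscle arrays, against 10.58, 10.74 and 11.02 on regular-muscle arrays (difference 0.05, 95% interval -0.17 to 0.27, adjusted p = 0.76). For both PA28 genes the ranges were nearly the same in the 2 groups.

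The 4 chaperones that assemble the alpha ring work as pairs, Psmg1 with Psmg2 and Psmg3 with Psmg4. Psmg2 had 11.21, 11.46 and 11.90 (lowest, median, highest) on mini-muscle arrays, against 11.79, 11.88 and 12.14 on regular-muscle arrays (difference -0.42, SE 0.11, 1.34-fold, adjusted p = 0.0067). Its partner Psmg1 differed by -0.24 (95% interval -0.46 to -0.02, adjusted p = 0.11) and was not called. Psmg3 had 9.85, 10.50 and 10.75 on mini-muscle arrays, against 9.75, 9.85 and 10.25 on regular-muscle arrays (difference 0.45, SE 0.15, 1.36-fold, adjusted p = 0.032), and its partner Psmg4 differed by -0.03 (95% interval -0.35 to 0.29, adjusted p = 0.91). The groups overlapped for Psmg2 and Psmg3, and the call of Psmg3 was kept in 4 of the 12 fits that each left out 1 array. Pomp, the maturation factor that helps complete the core, differed by 0.00 (95% interval -0.16 to 0.17, adjusted p = 0.97).

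**Figure D4:**
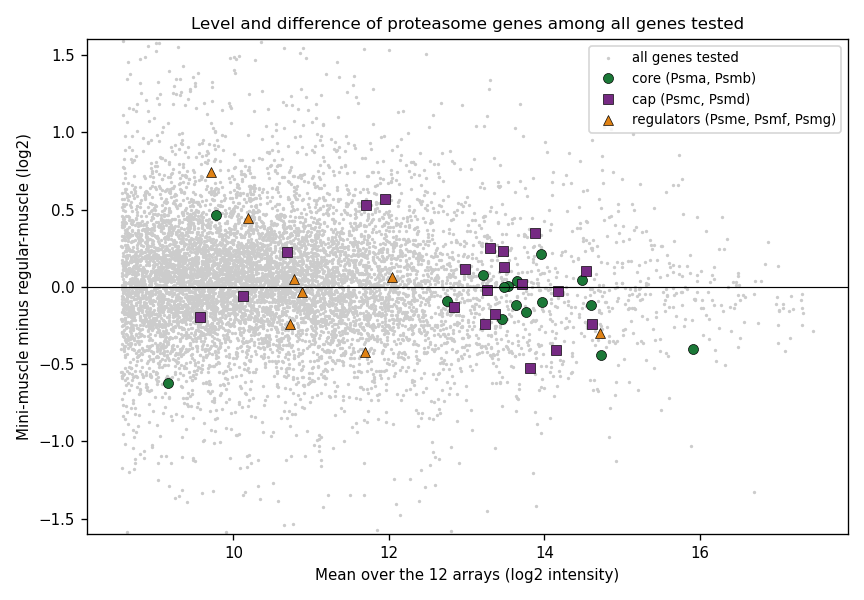
Difference between mini-muscle and regular-muscle on the log2 scale against the mean log2 intensity over 12 arrays, with all tested genes in grey and the 44 tested members in colour by core, cap and regulators. The vertical axis ends at 1.6 on both sides and leaves out 67 genes, and the constitutive subunits of core and cap lie at mean intensities between 11.70 and 15.92 and at differences between -0.53 and 0.57.

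On a first principal component of the 44 tested members (38.4% of their variance), mini-muscle arrays scored -1.34 to -0.23 and regular-muscle arrays 0.60 to 1.28. The first component of all tested genes (37.1% of their variance) separated the groups as well. On it mini-muscle arrays scored -22.18 to -17.92 and regular-muscle arrays 14.79 to 23.87. Averaged over members, each centred on its mean over 12 arrays, the 16 core genes ranged from -0.21 to 0.09 on mini-muscle arrays and from -0.05 to 0.22 on regular-muscle arrays. The 20 cap genes ranged from -0.06 to 0.13 on mini-muscle arrays and from -0.10 to 0.08 on regular-muscle arrays. The groups overlapped in both averages. Mini-muscle replicate 2 was the lowest of its group for 12 of the 16 core genes, and regular-muscle replicate 3 was the highest of its group for 12 of them. Over all probe sets, the same mini-muscle array had the highest median intensity of the 12 arrays (275.2). That regular-muscle array had the lowest (211.9), and a relation of the array medians to the core values was not tested.

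The mini-muscle allele is known to map to chromosome 11, and 8 members lie there: Psmb3, Psmb6, Psmc5, Psmd3, Psmd11, Psmd12, Psme3 and Psme4. Of these, Psmd3 was higher and Psme4 lower (25.0% called), against 29.1% of the 780 tested genes on that chromosome. Among the 36 tested members on other chromosomes, 36.1% were called.

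Where several probe sets of a member lay above the dim limit (19 members), all gave the same direction for 14. They did not for Psma5, Psmb4, Psmc4, Psmd4 and Psmd11, of which Psmd4 was the only called one. Of the 15 calls, those of Psmb7, Psmd3, Psmd6, Psmd8 and Psmd13 were kept under all 20 alternative settings. Psmb7, Psmd3 and Psmd8 have only 1 probe set each, so averaging of probe sets left their own values unchanged. A further 5, those of Psma3, Psmc2, Psmd2, Psmf1 and Psmg2, were kept whichever array was left out. All 5 were lost when the probe sets of a gene were averaged. Each of these 5 genes has more than 1 probe set, and the averages took in those below the dim limit. The calls of Psmc2 and Psmg2 were also lost with arrays centred on their medians. The calls of Psmb10, Psmd1, Psmd4, Psme4 and Psmg3 were lost in at least 7 of those 12 fits.

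Among the factors known to raise proteasome transcription, Nfe2l1 was higher in mini-muscle. It had 13.56, 13.72 and 13.96 (lowest, median, highest) on mini-muscle arrays, against 12.61, 13.18 and 13.28 on regular-muscle arrays, without overlap (difference 0.65, SE 0.10, 1.57-fold, adjusted p = 0.00014). Its small Maf partner gene Mafk was higher too (0.73, SE 0.18, adjusted p = 0.0044), as was Stat3 (0.56, SE 0.16, adjusted p = 0.016). The other Stat3 probe sets above the dim limit differed by 0.46 and -0.58, and its call was lost when the probe sets were averaged (0.059, adjusted p = 0.86). Ngly1, the glycanase that processes the Nfe2l1 protein, was lower (-0.29, SE 0.09, adjusted p = 0.023). Nfe2l2, the related oxidative stress factor, differed by 0.08 (95% interval -0.09 to 0.25, adjusted p = 0.54). In this list 3 of 8 tested genes were higher and 1 was lower, while the subunit genes had the mixed directions given above.

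Of 10 tested proteasome-bound proteins without a Psm name, 3 were higher and 2 lower. Usp14, a deubiquitinase of the cap base, had 11.93, 12.02 and 12.16 (lowest, median, highest) on mini-muscle arrays, against 11.17, 11.32 and 11.83 on regular-muscle arrays (difference 0.63, SE 0.10, 1.55-fold, adjusted p = 0.00019). Its 3 other probe sets differed by 0.23, -0.04 and -0.01. Uchl5, the other cap-bound ubiquitin hydrolase of this kind, went the opposite way, with 11.27, 11.52 and 11.64 on mini-muscle arrays, against 11.81, 12.02 and 12.17 on regular-muscle arrays (difference -0.49, SE 0.09, 1.40-fold, adjusted p = 0.00054). Neither gene overlapped between the groups. Ecpas, a scaffold that binds the whole proteasome, was higher (0.44, SE 0.08, adjusted p = 0.00037), but 2 further probe sets, both above the dim limit, differed by -0.31 (SE 0.09) and 0.51 (SE 0.20). Akirin2, which carries proteasomes into the nucleus, was higher (0.66, SE 0.15, adjusted p = 0.0024).

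Upstream of the proteasome, the segregase Vcp and its cofactors pull ubiquitinated proteins out of complexes. Nploc4, a Vcp cofactor, had 11.19, 11.30 and 11.67 (lowest, median, highest) on mini-muscle arrays, against 10.18, 10.34 and 10.67 on regular-muscle arrays, without overlap (difference 0.98, SE 0.11, 1.97-fold, adjusted p = 4.9e-06). Its partner Ufd1 differed by 0.16 (95% interval -0.02 to 0.35, adjusted p = 0.19) and Vcp itself by 0.20 (95% interval 0.01 to 0.39, adjusted p = 0.12). The cofactor Nsfl1c was higher (0.53, SE 0.13, adjusted p = 0.0047), and Ubxn1 (-0.34, SE 0.09, adjusted p = 0.0058) and the shuttle Rad23b (-0.33, SE 0.10, adjusted p = 0.016) were lower. In all, 3 of the 12 tested genes of this list were higher and 2 lower. The called share was 41.7%, against 26.7% of all genes and 45.0% of genes at mean log2 11.70 to 15.92.

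Among 9 tested ubiquitin-activating and ubiquitin-conjugating enzymes, 1 was higher and 5 were lower. The called share was 66.7%, against 26.7% of all genes and 45.0% of genes at mean log2 11.70 to 15.92. Ube2d1 had 13.26, 13.63 and 13.84 (lowest, median, highest) on mini-muscle arrays, against 14.05, 14.26 and 14.44 on regular-muscle arrays (difference -0.67, SE 0.10, 1.59-fold, adjusted p = 5.6e-05). Ube2b, a conjugating enzyme known to be induced in muscle wasting, was lower (-0.35, SE 0.07, adjusted p = 0.0013). Ube2g1 was lower (-0.29, SE 0.08, adjusted p = 0.012) while its relative Ube2g2 was higher (0.67, SE 0.11, adjusted p = 0.0002). Their dimmer probe sets differed by 0.10 for Ube2g1 and 0.09 for Ube2g2. Over these 4 lists, 20 of the 39 tested genes were called, 10 in each direction. That share was 51.3%, against 26.7% of all genes and 45.0% of genes at mean log2 11.70 to 15.92. The 39 genes had means of log2 9.67 to 14.89, and the difference in share was not tested. With arrays centred on their medians the calls were 9 higher and 2 lower.

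**Figure D5:**
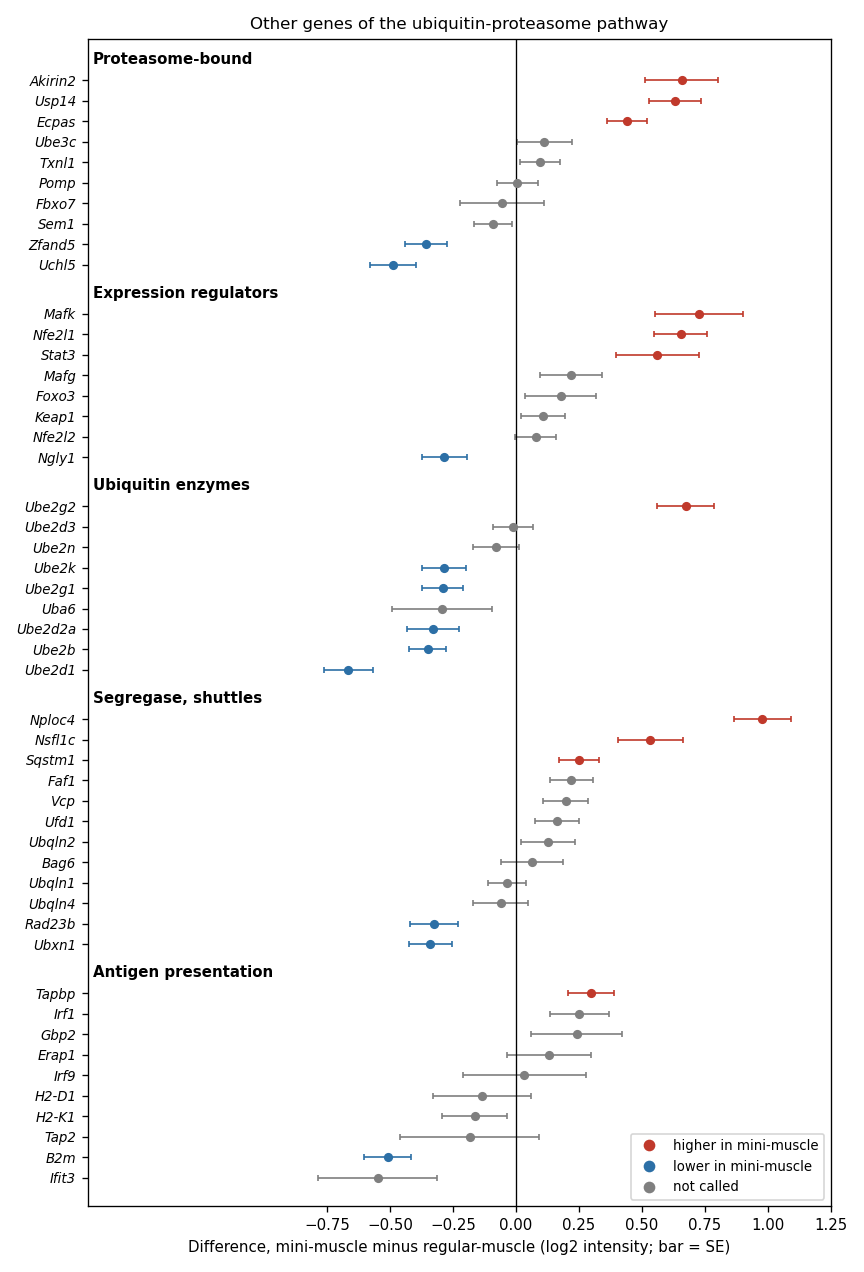
Difference between mini-muscle and regular-muscle on the log2 scale (points, with standard errors as bars) of the tested ubiquitin-proteasome genes without a Psm name, grouped by list, with antigen presentation and interferon genes last. Nploc4 at 0.98 is the highest and Ube2d1 at -0.67 the lowest.

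Promoters were searched because many proteasome genes share short motifs near their start sites. A RefSeq promoter (build GRCm38.p6, 250 bases before to 50 after the start) was on hand for 39 members, and both strands were read. CCGGAAG, the core bound by ETS family factors, lay in 14 of the 39 (35.9%), against 9.9% of the promoters of 27025 genes and 12.9% of those of 17492 protein-coding genes. It was present in 4 of 7 members called higher, 3 of 5 called lower and 7 of 25 not called, so it occurred among both directions. TGACNNNGC, the antioxidant response element used by Nfe2l1 and Nfe2l2, lay in 6 of the 39 (15.4%), against 14.0% of all genes and 14.8% of protein-coding ones. It was in 0 of the 7 promoters of members called higher and in 1 of the 5 of members called lower. TGANTCAGC, the MAF-type antioxidant response element, lay in 1 of the 39 (2.6%, against 1.4% of all genes and 1.3% of protein-coding ones). That match was in Psmb5, which was not called, at position 42 from the start site. GGGCGG, the GC box, lay in 22 (56.4%, against 38.2% of all genes and 49.2% of protein-coding ones), and CCAAT in 14 (35.9%, against 41.1% and 42.3%). Matches of different motifs were counted separately and may overlap, and a match describes letters in the window, not a bound site.

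Stretches around the motif follow for 2 cap genes that were higher (Psmd2, Psmd13) and for Psmd6 and Psme4, which were lower. A stretch is also given for the catalytic subunit gene Psmb5, which was not called and has a letter match to TGACNNNGC. They are RefSeq sequence in GRCm38.p6, 5′ to 3′ on the strand of the gene, with the ETS core (or its reverse complement) in capitals, and for Psmb5 the TGACNNNGC match.
Psmd2: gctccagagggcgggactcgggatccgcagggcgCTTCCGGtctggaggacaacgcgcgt
Psmd13: gcgcccgcggtgCCGGAAGtgagcgagcac
Psmd6: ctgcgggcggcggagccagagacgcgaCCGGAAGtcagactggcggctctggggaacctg
Psme4: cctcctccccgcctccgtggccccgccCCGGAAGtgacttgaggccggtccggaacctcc
Psmb5: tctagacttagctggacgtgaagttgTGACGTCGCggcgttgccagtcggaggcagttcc
The Psmd2 stretch is chr16:20651592-20651651 on the plus strand and the Psmd13 stretch chr7:140882376-140882405 on the plus strand. Psmd6 is read from chr14:14120958-14121017 on the minus strand, Psme4 from chr11:30771695-30771754 on the plus strand and Psmb5 from chr14:54618009-54618068 on the minus strand. The capitals begin at position -26 from the start site in Psmd2, -6 in Psmd13, -45 in Psmd6, -53 in Psme4 and -47 in Psmb5. Psmd13, which was higher, and Psmd6, which was lower, carry the same 7 letters on the same strand of the gene. Both were shown because they hold the match, and a relation of the motif to the direction of change was not tested.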

How the data were processed

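RNA of 12 mice (6 mini-muscle, both legs pooled, and 6 regular-muscle, 1 leg) was hybridised to Affymetrix arrays as biotin-labelled cRNA, per the labels' protocols. The authors deposited linear probe set intensity values, which the submitters' processing notes credit to MAS5; version and settings were not given in the sources used here. MAS5 scales each array, and its mean after trimming 2% of probe sets at both ends was 800.0 on all 12 arrays. The array medians were not level and ran from 211.9 to 275.2. The number of arrays limits the precision. The replicate numbers only name arrays.

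From the deposited intensity values, log2 values were taken without an offset or further normalization. GEO's platform annotation names 1 gene for 34958 of 45101 probe sets, and the brightest of these by mean log2 was kept for each of 18194 genes. The 9097 genes at or above the median of these means (log2 8.56) were tested with limma 3.58.1 in R 4.3.3 (lmFit and eBayes, trend on intensity, two-sided tests). The p-values were adjusted by Benjamini-Hochberg over all of them. Intervals are 95% intervals of the moderated fit. The procedure was tested on simulated data.

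The members and the gene lists, written from textbook knowledge, were chosen with earlier results of these data known. All called members are named with full values, as are 13 fixed genes except Psme2, which was not a member. Of each other list, up to 4 genes with the smallest adjusted p are named. Others named (Psmc4, Psmc6, Psma2, Psmb3, Psmg1, Psmg4, Sem1, Pomp, Nfe2l2, Vcp, Ufd1) were chosen after their values were seen. Of the 50 genes in the 4 ubiquitin-proteasome lists, 40 had a probe set of their own. Alternatives were quantile normalization, centring of arrays on their medians, no filter on dim genes, the brightest 33.3% of genes, an offset of 64 before log2, averaging a gene's probe sets, no intensity trend, array weights, and leaving out each array.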

Additional observations from a re-analysis of the deposited data

Results flagged for a closer look

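In 11 of 94 groups of 6 arrays (each member in each phenotype), 1 array lay farther from the others than Dixon's limit allows, where chance gives about 1 in 20. Mini-muscle replicate 1 was the lowest of its group for Psmc4 (log2 11.50, next array 13.37) and for Psmc2 (14.39, next 14.48). Without it Psmc2 differed by -0.22 (adjusted p = 0.026, limma).

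Regular-muscle replicate 6 was the lowest of its group for Psmf1 (8.31, next 9.38) and Psmd1 (12.92, next 13.16) and the highest for Psmg2 (12.14, next 11.92). Without it the call of Psmd1 was lost (0.20, adjusted p = 0.12), and Psmg2 differed by -0.38 (adjusted p = 0.019). Regular-muscle replicate 3 was the highest of its group for Psmb1 (14.45, next 14.05) and Psmc3 (14.30, next 14.19), neither of which was called. Regular-muscle replicate 1 was the lowest for Psmd4 (13.05, next 13.36), and without it that call was lost (0.17, adjusted p = 0.1). Mini-muscle replicate 3 was the highest for Psme1 (12.48, next 12.07), mini-muscle replicate 6 the lowest for Psmd9 (8.68, next 9.48), and mini-muscle replicate 2 the highest for the dim gene Psmb11 (7.69, next 5.46).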

How the results depend on the processing

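The count of members called higher (8 as reported) was 5 with arrays centred on their medians, 4 without the filter on dim genes and 3 with the mean of a gene's probe sets. Leaving out 1 array gave 4 to 8, with 5 without mini-muscle replicate 1 or 4 or regular-muscle replicate 1 or 4, and 4 without mini-muscle replicate 5 or regular-muscle replicate 6. The count called lower (7) was 4 with median centring and 4 with the mean of probe sets. Core calls (3) were 5 among the brightest 33.3% of genes, where Psmf1 was not tested. Cap calls (8) were 5 with median centring and 5 with the mean of probe sets. Regulator calls (4) were 1 with median centring, 2 without the dim filter and 0 with the mean of probe sets. They were 2 without mini-muscle replicate 1, 3 or 6 or regular-muscle replicate 2 or 6, and 2 to 4 over all arrays left out. The other ubiquitin-proteasome genes (10 higher, 10 lower) had 6 higher and 5 lower with the mean of probe sets and 2 lower with median centring. Over all genes, 1356 higher became 862 with the mean of probe sets, and 1070 lower became 651 with median centring and 681 with the mean of probe sets. Of the 44 tested members, 13 changed sign under at least 1 alternative. Psme4 was the only called one (0.063 with the mean of probe sets), and the other 12 had reported differences of at most 0.13 in size. Among these were Psme1 without mini-muscle replicate 3 (-0.015, within a range up to 0.14 over the arrays left out), Psmc4 without mini-muscle replicate 1 (0.33) and Psmg4 without that array (0.067). None passed where its sign changed (lowest adjusted p = 0.057). With the mean of probe sets the calls of Usp14, Uchl5, Stat3, Ube2g2, Ube2b, Ube2g1, Rad23b, Tapbp and Csf1r were lost. With median centring those of Ngly1, Ube2b, Ube2g1, Ubxn1, Rad23b, Tapbp and Csf1r were lost. The call of Ngly1 was also lost without mini-muscle replicate 4 or regular-muscle replicate 2 or 5, that of Tapbp without mini-muscle replicate 4, and that of Csf1r without mini-muscle replicate 5 or regular-muscle replicate 1. The cause of these changes was not tested. No paired analysis was possible because the labels give no shared replicate numbers. With 6 arrays of 1 line per group, the tests measure the spread between animals of a line and not between lines. Psma8, Psmb9 and Psmb11 were left out by the dim filter and did not pass when all 18194 genes were fitted (adjusted p = 0.56, 0.14 and 0.88).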
